A study of Mus musculus with 6 samples.

Results

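The 9 genes described here encode enzymes that make, salvage or break down deoxynucleotides, the building blocks of DNA: Rrm1, Rrm2, Rrm2b, Tyms, Tk1, Dut, Dctpp1, Samhd1 and Dck. They were chosen by symbol with earlier results of these data known, so their shares set against all genes below are descriptive only. Each matched 1 of the 52740 gene rows of the count table, and all 9 were among the 15022 genes abundant enough to be tested. The cells were C2C12, a mouse myoblast line, grown with 10% fetal bovine serum and transfected with RNAiMAX. The siCOX7A2L group (3 libraries) received an siRNA against Cox7a2l, which encodes a factor that joins respiratory complexes into supercomplexes. The siCTRL group (3 libraries) received a control siRNA. Cells of both groups are of this 1 line, and nothing in the labels says that the replicates were separate cultures, so p-values measure the spread between these libraries, which may be technical.

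Ribonucleotide reductase converts ribonucleotides to deoxynucleotides and is the rate-limiting step of their synthesis. Its large subunit, Rrm1, holds the catalytic and allosteric sites, and a small subunit supplies the radical that starts the reaction. Rrm2 is the small subunit of cycling cells, made in S phase and degraded after it, while Rrm2b, the p53-inducible one, serves DNA repair and mitochondrial DNA in resting cells. Myoblasts leave the cell cycle when they differentiate into myotubes, and the enzymes of S phase fall in that transition.

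Total estimated counts ran from 9890218 to 15095348 in siCOX7A2L libraries and from 14310241 to 17077826 in siCTRL libraries, with the smallest in siCOX7A2L replicate 3. Cox7a2l had 6.72, 5.90 and 3.59 CPM (counts relative to library size, scaled by TMM) in siCOX7A2L replicates 1, 2 and 3, against 58.0, 59.5 and 58.9 CPM in siCTRL (log2 fold change -3.44, edgeR adjusted p = 1.9e-05). The myoblast markers Myod1, Myf5, Des, Cdh15, Chrna1 and Itga7 summed to 1708 to 3454 CPM in siCOX7A2L libraries and 1869 to 2375 CPM in siCTRL libraries. The 5 markers of other cells (Ptprc, Pecam1, Epcam, Adipoq and Sox10) summed to 0.281 to 0.898 CPM in siCOX7A2L libraries and 0.330 to 0.522 CPM in siCTRL libraries. Of these, Epcam and Sox10 were at 0 in every library. Replicate 3 of both groups stood apart: 6 myotube markers summed to 324 CPM in siCOX7A2L replicate 3 and 136 CPM in siCTRL replicate 3, against at most 20.2 CPM and 9.29 CPM in the other libraries of each group. The 5 fibroblast markers summed to 28.1 to 68.16 CPM in siCOX7A2L libraries and 18.4 to 38.8 CPM in siCTRL libraries. Of the marker lists Acta1 of myotubes and Dcn of fibroblasts rose, and the part of these markers in the results below was not tested. Mitochondrial protein messages took 1.61% and 2.78% of counts there and 0.589% to 0.616% elsewhere. Each siCOX7A2L library was therefore set against the siCTRL library of its own number, a pair, by blocking on replicate in an edgeR quasi-likelihood fit.

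As a sample of what stands before these genes, 150 bases upstream of the RefSeq start are shown for both main subunits of ribonucleotide reductase and for Tk1, because Rrm2 and Tk1 had the lowest fold changes of the 9 genes. Capitals mark the CCAAT box (CCAAT), the GC box (GGGCGG) and the core of the E2F motif (TTCCCGC, or the form TTGGCGC, or the form TTCGCGC, or the form TTGCCGC), each on either strand. Sequences are from RefSeq on GRCm38.p6, another build than that of the deposited files: Rrm1 at chr7:102441545-102441694 (plus strand), Rrm2 at chr12:24708104-24708253 (plus strand) and Tk1 at chr11:117826015-117826164 (minus strand).
Rrm1: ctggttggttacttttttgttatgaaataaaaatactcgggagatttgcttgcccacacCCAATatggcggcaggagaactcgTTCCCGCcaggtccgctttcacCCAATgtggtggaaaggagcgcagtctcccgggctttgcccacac
Rrm2: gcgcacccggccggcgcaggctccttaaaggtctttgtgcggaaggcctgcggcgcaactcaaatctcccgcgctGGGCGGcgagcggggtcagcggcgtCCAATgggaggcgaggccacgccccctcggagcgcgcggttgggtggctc
Tk1: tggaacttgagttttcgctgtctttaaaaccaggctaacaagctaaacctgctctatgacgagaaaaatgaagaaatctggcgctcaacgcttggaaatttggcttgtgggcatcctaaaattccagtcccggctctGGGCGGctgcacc

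In windows from 250 bases before to 50 after the start, 8 of the 9 genes had an entry (all but Rrm2b). The CCAAT box stood in 3 of 8 (Rrm1, Rrm2 and Dctpp1), against 38.1% of the 12875 windows of tested genes. Rrm1 had it 91 and 45 bases upstream of the start, and Rrm2 had it 50 bases upstream. The GC box stood in 7 of 8, all but Rrm1, against 61.3%. The E2F core stood in Rrm1, 67 bases upstream, and in Rrm2, 235 bases upstream on the other strand and so outside the stretch shown. The share was 16.1% of the windows of tested genes and, counted per gene, 69.6% of 23 replication fork genes. The longer E2F motif with 1 more T before the core stood in 0 of 8, against 3.81%, and the CHR element (TTTGAA) in Dck alone, against 12.5%. These are letter matches, not binding sites.

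Of the 9 genes, 8 had a negative log2 fold change after Cox7a2l siRNA, against 48.9% of all genes, and 1 passed the threshold over all genes (adjusted p under 0.05), which was Rrm2. In the same fit 0.726% of all genes passed in either direction, and 0.293% of all genes passed with a lower level. The median log2 fold change of the 9 genes was -0.45, against 0.01 for all genes tested. The 95% interval of the change lay below 0 for 6 of them (Rrm1, Rrm2, Tyms, Tk1, Dut and Dck), which is also the number with an unadjusted p under 0.05 and a lower level, against 8.97% of all genes. Lower values in all 3 pairs were found for 5 of 9, against 20.8% of all genes, and the groups did not overlap, with siCOX7A2L lower, for 3 of 9, against 7.62%. The summed level of the 9 genes was 702.3, 652.5 and 512.2 CPM in siCOX7A2L replicates 1, 2 and 3, against 924.8, 887.9 and 970.5 CPM in siCTRL. Other fits called other numbers of the 9: edgeR called 0 without the block (against 0.0133% of all genes) and 0 with a term for replicate 3 (1.31%, with 0.526% lower). Without an expression filter edgeR called 5 (4.7% of 26739 genes, with 2.58% lower). DESeq2 with the block called 2 (4.5% of the 10999 genes with an adjusted p, with 2.57% lower). In RNA of whole cultures, fewer cells in S phase and less RNA per cell cannot be told apart.

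**Figure D1:**
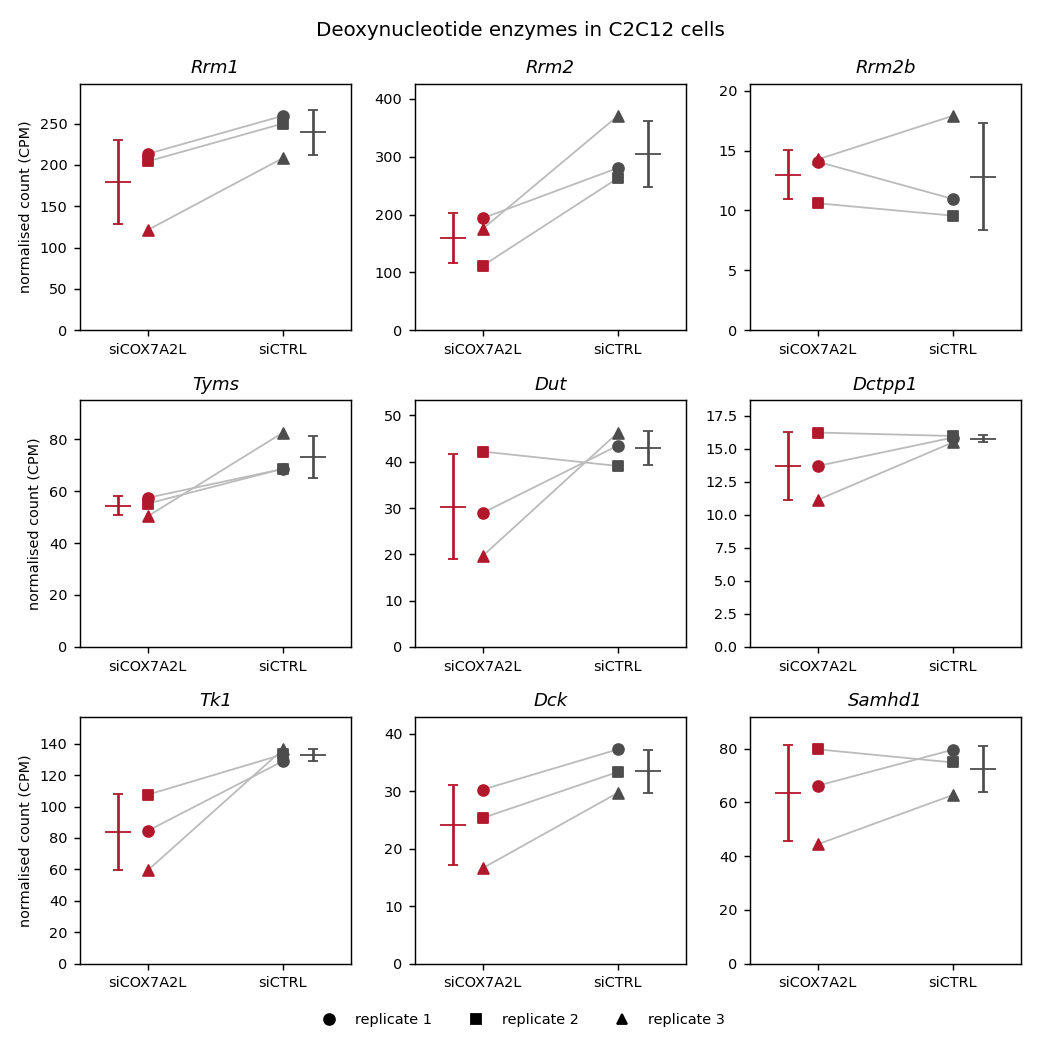
Normalised counts (CPM, y axis from 0, a scale for each gene) of the 9 genes in siCOX7A2L (red) and siCTRL (grey) libraries, with marker shapes for the replicate number, grey lines joining libraries of the same number, and bars for the mean ± SD (n = 3). Rrm2, Tyms and Tk1 have each siCOX7A2L library below each siCTRL library, and siCOX7A2L replicate 3 is the lowest of its group in 7 of 9 genes. The share of all genes with replicate 3 lowest was not counted.

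Rrm2 (chromosome 12), the S phase small subunit, had 194, 111 and 175 CPM in siCOX7A2L replicates 1, 2 and 3, against 281, 263 and 371 CPM in siCTRL. Each siCOX7A2L library lay below each siCTRL library, and the lowest was siCOX7A2L replicate 2. Rrm2 fell to 0.517 times the siCTRL level (log2 fold change -0.95, standard error 0.15, 95% interval -1.28 to -0.63, edgeR adjusted p = 0.0231). Its pairs gave -0.54, -1.24 and -1.08 on the log2 scale. Over 19 alternative fits its log2 fold change ran from -1.23 to -0.75 and 8 called it. The call was lost, among others, without pair 3 (log2 fold change -0.89, edgeR adjusted p = 0.0939), with a term that sets replicate 3 apart in place of the block (edgeR adjusted p = 0.0507) and without the block (edgeR adjusted p = 0.735).

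Rrm1 (chromosome 7), the large subunit, had 213.5, 204.4 and 121.3 CPM in siCOX7A2L replicates 1, 2 and 3, against 259.6, 250.2 and 208.5 CPM in siCTRL. Within each pair the siCOX7A2L library was lower, though siCOX7A2L replicate 1 lay above siCTRL replicate 3, so the groups overlapped. The log2 fold change was -0.45 (0.732 times, 95% interval -0.75 to -0.15), short of the threshold (edgeR adjusted p = 0.126). Rrm1 was past the threshold without pair 2 (log2 fold change -0.54, edgeR adjusted p = 0.0382), while without pair 3 it was -0.29 (edgeR adjusted p = 0.271). Without pair 2, 1210 genes in all passed, against 109 in the fit of all pairs. Fits without a pair, here and below, have fewer residual degrees of freedom. Their adjusted p-values rest more on spread borrowed from other genes.

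Rrm2b (chromosome 15), the small subunit linked to p53, had 14.1, 10.6 and 14.3 CPM in siCOX7A2L replicates 1, 2 and 3, against 10.96, 9.57 and 17.9 CPM in siCTRL. It was the 1 gene of the 9 with a positive estimate, and its groups overlapped throughout. The log2 fold change was 0.06 (95% interval -0.36 to 0.48, edgeR adjusted p = 0.903), an interval that reaches from 0.782 to 1.39 times the siCTRL level, and its sign is not fixed: pairs 1 and 2 gave 0.36 and 0.15 and pair 3 gave -0.33. Of 19 other p53 target genes 0 passed in either direction, with 15 positive estimates and a median log2 fold change of 0.21. Over all genes tested, 0.726% passed and 7672 of 15022 had a positive estimate. The log2 fold change of Cdkn1a, the gene of p21, which halts the cell cycle, was 0.36 (edgeR adjusted p = 0.356).

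Levels of the 3 subunits can be set against each other only per transcript length, in TPM (transcript abundance corrected for length). Rrm2 had 82.3, 45.0 and 48.6 TPM and Rrm1 had 48.2, 43.6 and 27.0 TPM in siCOX7A2L replicates 1, 2 and 3. In siCTRL, Rrm2 had 124, 115 and 165 TPM and Rrm1 had 64.5, 61.4 and 66.7 TPM. Rrm2b had the lowest group means of the 9 genes, with 6.39, 2.58 and 4.44 TPM in siCOX7A2L and 5.88, 4.41 and 5.22 TPM in siCTRL. In siCOX7A2L replicate 3 Dck was lower, at 3.59 TPM.

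Within a library the Rrm2 to Rrm1 ratio of TPM was 1.71, 1.03 and 1.80 in siCOX7A2L, against 1.93, 1.87 and 2.47 in siCTRL. The ratio of Rrm2b to Rrm2 was 0.0776, 0.0574 and 0.0913 in siCOX7A2L, against 0.0472, 0.0385 and 0.0317 in siCTRL. Neither ratio of TPM overlapped between the groups. The log2 difference of these TPM ratios was -0.50 for Rrm2 to Rrm1 and 0.94 for Rrm2b to Rrm2, each with p = 0.1 in a two-sided exact permutation test, the smallest p that 3 libraries against 3 allow. In CPM the Rrm2b to Rrm2 ratio stayed apart too, but the Rrm2 to Rrm1 ratio overlapped. There siCOX7A2L replicate 3 (Rrm2 175 CPM, Rrm1 121.3 CPM) had a higher ratio than siCTRL replicates 1 (281 and 259.6 CPM) and 2 (263 and 250.2 CPM). The small subunits thus stood closer in level after Cox7a2l siRNA in these libraries, with Rrm2 still the more abundant in each.

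**Figure D2:**
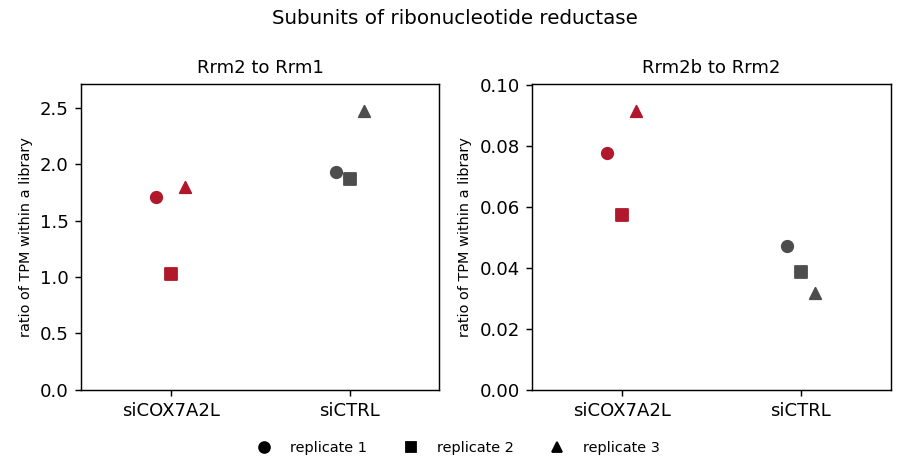
Ratio of TPM within each library for Rrm2 to Rrm1 (left) and Rrm2b to Rrm2 (right), y axes from 0, siCOX7A2L in red and siCTRL in grey, with marker shapes for the replicate number. The siCOX7A2L libraries lie below the siCTRL libraries on the left (1.03 to 1.80 against 1.87 to 2.47) and above them on the right (0.0574 to 0.0913 against 0.0317 to 0.0472).

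Tyms, thymidylate synthase, methylates dUMP to dTMP, and Dut hydrolyses dUTP to dUMP, which feeds Tyms and keeps uracil out of DNA. Tyms (chromosome 5) had 57.4, 55.2 and 50.3 CPM in siCOX7A2L replicates 1, 2 and 3, against 68.5, 68.6 and 82.5 CPM in siCTRL. The groups did not overlap. Its log2 fold change was -0.43 (0.745 times, standard error 0.14, 95% interval -0.73 to -0.12), short of the threshold (edgeR adjusted p = 0.151). Per length the Tyms libraries were more spread, with 21.95, 24.9 and 9.41 TPM in siCOX7A2L against 38.6, 35.8 and 39.2 TPM in siCTRL. The size of the Tyms change therefore depended on the unit: on log2(TPM + 0.5) it was -1.11 (limma adjusted p = 0.203).

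Dut (chromosome 2) had 29.0, 42.2 and 19.7 CPM in siCOX7A2L replicates 1, 2 and 3, against 43.5, 39.1 and 46.3 CPM in siCTRL. In pair 2 the siCOX7A2L library was the higher one, so its pairs gave -0.58, 0.11 and -1.23 on the log2 scale. The log2 fold change was -0.55 (0.681 times, 95% interval -1.06 to -0.05, edgeR adjusted p = 0.241), and without pair 2 it was -0.91 and past the threshold (edgeR adjusted p = 0.000504). Without pair 3 it was -0.24 (edgeR adjusted p = 0.611). The fit without pair 2 called 1210 genes in all, against 109 in the fit of all pairs.

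Dctpp1 (chromosome 7), a pyrophosphatase that removes dCTP and its modified forms, had 13.7, 16.2 and 11.1 CPM in siCOX7A2L replicates 1, 2 and 3, against 15.84, 15.96 and 15.48 CPM in siCTRL. The siCTRL libraries were nearly equal and the siCOX7A2L libraries lay on both sides of them. Dctpp1 had a log2 fold change of -0.21 (95% interval -0.59 to 0.16, edgeR adjusted p = 0.561), which was -0.35 without pair 2 and -0.10 without pair 3.

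Salvage enzymes phosphorylate deoxynucleosides taken up by the cell. Tk1 (chromosome 11), the cytosolic thymidine kinase of S phase, had 84.5, 108 and 59.4 CPM in siCOX7A2L replicates 1, 2 and 3, against 129, 133 and 136 CPM in siCTRL. Its siCTRL libraries differed by little and each siCOX7A2L library lay below them. The log2 fold change was -0.70 (0.616 times, standard error 0.16, 95% interval -1.06 to -0.34), short of the threshold (edgeR adjusted p = 0.0736). The value turned on the pairs: without pair 1 it was -0.75 (edgeR adjusted p = 0.0241), without pair 2 it was -0.91 (edgeR adjusted p = 8.38e-05) and without pair 3 it was -0.46 (edgeR adjusted p = 0.145). In that order these fits called 373, 1210 and 51 genes in all, against 109 in the fit of all pairs. Tk1 overlaps Afmid on the other strand, which averaged 8.39 CPM. Rrm1 overlaps Gm45399 (mean 1.53 CPM) and Rrm2b overlaps the pseudogene Gm3362 (mean 0.846 CPM), each on the same strand.

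Dck (chromosome 5), deoxycytidine kinase, had 30.3, 25.3 and 16.6 CPM in siCOX7A2L replicates 1, 2 and 3, against 37.3, 33.4 and 29.7 CPM in siCTRL. The siCOX7A2L library was lower in each pair, and the groups overlapped only through siCOX7A2L replicate 1. Its log2 fold change of -0.50 (0.706 times, 95% interval -0.85 to -0.16) did not pass (edgeR adjusted p = 0.136).

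Samhd1 (chromosome 2) hydrolyses deoxynucleoside triphosphates and so acts against the synthetic enzymes. It had 66.2, 79.7 and 44.4 CPM in siCOX7A2L replicates 1, 2 and 3, against 79.5, 74.8 and 62.7 CPM in siCTRL. The groups overlapped, and replicate 3 was the lowest of both. Its estimated change was -0.22 on the log2 scale (0.858 times, 95% interval -0.54 to 0.10, edgeR adjusted p = 0.460), and it was -0.39 without pair 2 and -0.09 without pair 3.

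**Figure D3:**
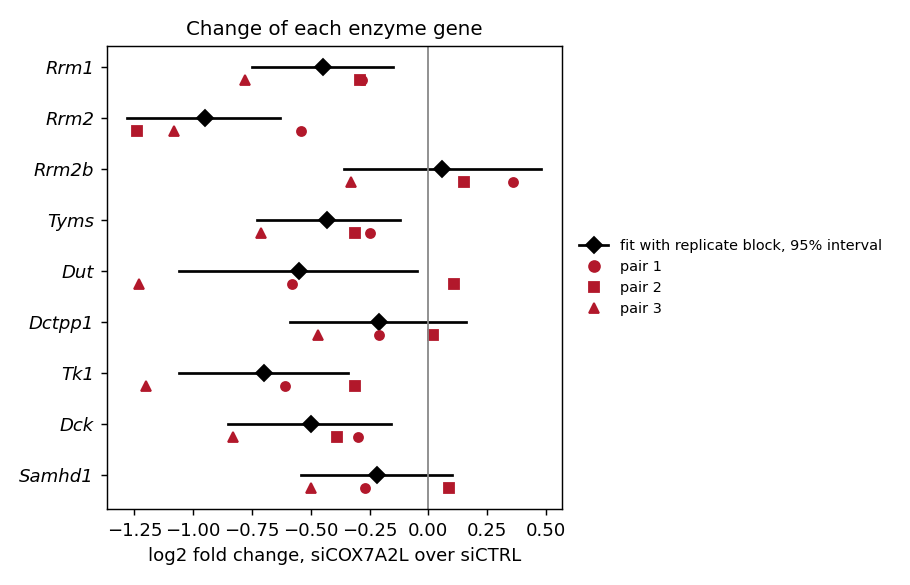
Log2 fold change (siCOX7A2L over siCTRL) of the 9 genes from the fit with the replicate block, with 95% intervals (black), and the log2 difference within each pair (red, shape by replicate number). The interval is below 0 for 6 genes, and pair 3 gives the lowest of the 3 pair values for 8 of 9 genes, all but Rrm2. The share of all genes with pair 3 lowest was not counted.

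The authors' deposited table, whose log2 fold changes equal those of a DESeq2 model with a term for replicate 3 to within 1.3e-09, holds 4 of the 9 genes below an adjusted p of 0.05, all of them lower in siCOX7A2L, against 6.34% of its genes with an adjusted p, 3.45% lower. In the authors' deposited table the log2 fold change was -0.92 for Rrm2 (adjusted p = 0.000175) and -0.70 for Tk1 (adjusted p = 0.00488). The same table gives -0.46 for Rrm1 (adjusted p = 0.021) and -0.43 for Tyms (adjusted p = 0.0449). Its fold changes were close to those above for each of the 9 genes, while its adjusted p-values were lower than those of edgeR for all but Rrm2b and Dctpp1.

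Replicate 3 was examined by itself because its libraries stood apart. In siCOX7A2L, replicate 3 was the lowest library for 7 of 9 genes, and in siCTRL for 4 of 9. The same shares over all genes were not counted, so whether these are unusual is not known. Against the mean log2 CPM of replicates 1 and 2, Tk1 differed by -0.68 in siCOX7A2L replicate 3 and by 0.06 in siCTRL replicate 3. Dut differed by -0.83 and 0.17, and Rrm2 by 0.25 and 0.45, in the same order. The difference between the change in replicate 3 and that in replicates 1 and 2 was tested as an interaction, and 0 of 9 genes passed, against 0.0799% of all genes, with an unadjusted p under 0.05 for 4 of 9 (Rrm1, Tyms, Tk1 and Dut), against 17.5% of all genes. The estimates were negative for each of the 9, from -0.25 for Rrm2 to -1.02 for Dut (edgeR adjusted p = 0.222). DESeq2 likewise called 0 of 9, with 3 at an unadjusted p under 0.05, and edgeR without an expression filter called Tk1 (-0.79, adjusted p = 0.0484). The design leaves 2 residual degrees of freedom for this test, and 2 for the fit with the replicate block as well. The share of all genes with a negative interaction estimate was not counted. Median values of pairs 1, 2 and 3 were -0.28, -0.29 and -0.78 for the 9 enzymes. They were -0.40, -0.29 and -0.93 for the replication fork genes described below, so a lower pair 3 was not particular to the enzymes. Other features moved with replicate 3 as well. The gene row with the most counts took 6.97%, 7.57% and 11.1% of counts in siCOX7A2L replicates 1, 2 and 3, against 6.59%, 6.25% and 5.81% in siCTRL, and its part in these results was not tested beyond leaving it out of the fit, which kept the Rrm2 call (edgeR adjusted p = 0.0231).

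In siCTRL the order of the 9 genes by TPM was Rrm2 (135 ± 26.5 TPM), Tk1 (103 ± 1.77), Rrm1 (64.2 ± 2.67), Tyms (37.9 ± 1.80), Dut (30.0 ± 2.03), Dctpp1 (26.2 ± 0.184), Samhd1 (20.4 ± 3.17), Dck (10.4 ± 0.419) and Rrm2b (5.17 ± 0.733; SD, n = 3 each), and no neighbours in it overlapped. In siCOX7A2L every pair of neighbours overlapped when compared across libraries, which reflects the wider spread there. Rrm2 (58.6 ± 20.6 TPM) and Tk1 (57.1 ± 25.9) came first and Rrm1 (39.6 ± 11.1) next. Then came Dut (20.4 ± 9.15), Dctpp1 (19.6 ± 6.70), Tyms (18.8 ± 8.23) and Samhd1 (16.1 ± 8.27), with Dck (6.45 ± 2.69) and Rrm2b (4.47 ± 1.90) last. Within single libraries some neighbours kept this order and others did not. Rrm1 lay above Dut in each siCOX7A2L library (48.2, 43.6 and 27.0 against 20.5, 29.5 and 11.2 TPM). Rrm2 lay below Tk1 in siCOX7A2L replicate 2 (45.0 against 78.4 TPM). On the log2(TPM + 0.5) scale the median change of all genes was -0.21, and the row with the most counts took 44.2% to 53.6% of TPM in siCOX7A2L and 36.9% to 42.5% in siCTRL. Whether that row accounts for the shift was not tested. On this scale, in limma with the block, the log2 fold changes were -1.23 for Rrm2, -1.11 for Tyms, -0.97 for Tk1, -0.73 for both Rrm1 and Dck, -0.64 for Dut, -0.49 for Samhd1, -0.47 for Dctpp1 and -0.26 for Rrm2b, and 0 of the 9 passed. The enzymes thus moved by unequal amounts between CPM and TPM, with Tyms moving the most and Dut the least.

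The other genes of nucleotide metabolism were described in lists. Over all genes tested, the shares to set beside each list were 0.726% passing in either direction and 48.9% with a negative estimate. Of 7 partners in the thymidylate and folate cycle 0 passed, with 6 negative estimates and a median of -0.31. Shmt1 and Shmt2, the serine hydroxymethyltransferases, had log2 fold changes of -0.31 and -0.39 (edgeR adjusted p = 0.321 and 0.138). Dctd, which deaminates dCMP to dUMP, had -0.58 and Dtymk, the next kinase after Tyms and Tk1, had -0.22 (edgeR adjusted p = 0.321 and 0.456).

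Among 15 tested other deoxynucleoside and nucleotide kinases 0 passed, with 8 negative estimates and a median of -0.04. The mitochondrial salvage kinases Tk2 and Dguok had log2 fold changes of 0.10 (95% interval -0.30 to 0.49) and 0.09 (95% interval -0.27 to 0.45), with edgeR adjusted p = 0.827 and 0.824. Cmpk1 and Nme1, which add the later phosphates, had -0.11 and -0.05 (edgeR adjusted p = 0.806 and 0.880). Of 18 other hydrolases and catabolic enzymes 0 passed (median -0.03), and Nudt1, which clears oxidised nucleotides, had -0.27 (edgeR adjusted p = 0.573). Nt5c, the cytosolic deoxyribonucleotidase, is named here after its values were seen: it had 52.0, 48.8 and 67.0 CPM in siCOX7A2L replicates 1, 2 and 3, against 33.6, 33.0 and 26.3 CPM in siCTRL. Its groups did not overlap, which with siCOX7A2L higher held for 1196 of the 15022 genes tested. Its log2 fold change was 0.85 (1.80 times, 95% interval 0.47 to 1.22, edgeR adjusted p = 0.0521). Of 19 alternative fits 6 called Nt5c, and all 19 gave it a positive value, from 0.57 to 0.98. Dpyd of the same list had a larger estimate (1.12, edgeR adjusted p = 0.103), with overlapping groups. The list had 7 positive and 11 negative estimates.

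Of 10 regulators of ribonucleotide reductase 0 passed, with 9 negative estimates and a median of -0.34. Ccnf, the cyclin F that marks Rrm2 for degradation, had a log2 fold change of -0.53, and E2f1, an activator of S phase genes, had -0.55 (edgeR adjusted p = 0.101 and 0.0745). The repressor E2f8 had -0.28 (edgeR adjusted p = 0.281). The 7 electron donors of the enzyme had a median of -0.03 with 0 passing, and Txnrd1, thioredoxin reductase, had -0.01 (95% interval -0.27 to 0.24, edgeR adjusted p = 0.968). De novo purine synthesis (15 tested, median -0.26), de novo pyrimidine synthesis (5 tested, median -0.24) and nucleoside and nucleotide transporters (6 tested, median 0.05) had 0 genes past the threshold each.

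The replication fork list, the nearest neighbour of these enzymes in S phase, had 30 tested genes and a median of -0.55. Each had a negative estimate, against 48.9% of all genes. Of them 1 fell, Cdc45 of the replicative helicase (log2 fold change -0.81, edgeR adjusted p = 0.0488), against 0.293% of all genes. The 5 markers of cycling cells were lower in all 3 pairs, against 20.8% of all genes, with 0 passing. They summed to 1121, 1148 and 669.3 CPM in siCOX7A2L replicates 1, 2 and 3, against 1532, 1548 and 1684 CPM in siCTRL. Mki67 had a log2 fold change of -0.81 (edgeR adjusted p = 0.113). Differences between these lists and the 9 enzymes were not tested.

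**Figure D4:**
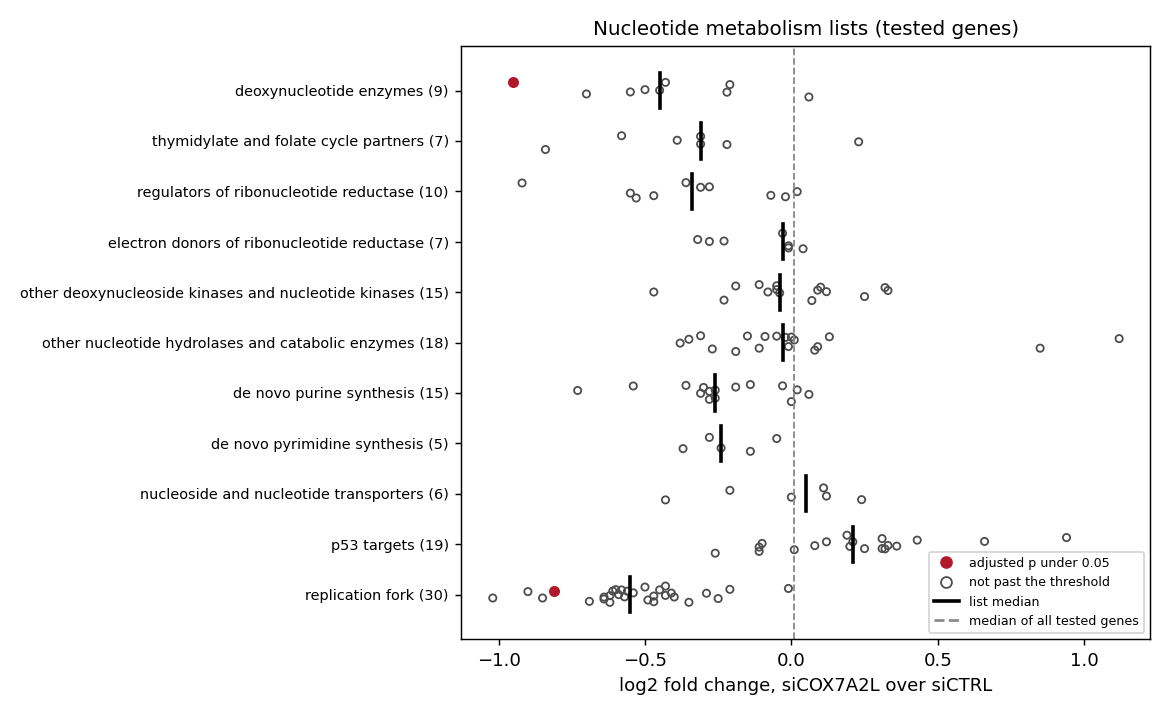
Log2 fold change (siCOX7A2L over siCTRL, fit with the replicate block) of the tested genes in each list, with the number tested in brackets, filled red points for adjusted p under 0.05, open points for the rest, black bars for list medians and a dashed line for the median of all genes tested. Rrm2 and Cdc45 are the filled points, and the replication fork list has the lowest median of the lists shown (-0.55).

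Genes with the most similar profile were sought as those with the smallest root mean square difference in log2 CPM over the 6 libraries, each profile centred on its own mean. For Rrm2 they were Kpna1 (0.151), Gm6682 (0.173) and Igsf5 (0.179), against a median over all genes of 0.640. For Tk1 they were Nek2, a mitotic kinase (0.051), Bard1, the partner of Brca1 (0.064), and Aspm, a spindle protein (0.074), against a median of 0.526. Rrm2b was nearest to Eef1akmt2 (0.066), Gm37879 (0.077) and Otoa (0.078). Ccdc127 and Lfng were among the 3 nearest to Samhd1 (0.048 each). Among the 9 enzymes themselves, Rrm1 and Dck were the closest to each other (0.073) and Tk1 and Dut next (0.122), while the nearest enzyme to Rrm2 was Tyms at 0.372.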

How the data were processed

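Per the labels' protocols, total RNA was depleted of ribosomal RNA and made into dUTP-stranded libraries read on an Illumina instrument. Tools named in the submitters' processing notes, without roles, are DESeq2 1.30.1, Salmon 0.13.1 and Trim Galore 0.6.4, and the build named there is mm39. The authors deposited estimated counts per gene, not scaled to depth, and TPM values scaled to transcript length. The authors also deposited a table of their comparison with, per the file headers, scaled counts (a normalised signal), log2 fold changes with standard errors, a test score, p-values and adjusted p-values.

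Symbols were joined by gene identifier without version (97.6% of rows matched). Of the 31-base words in the GENCODE M21 transcripts of each of the 9 genes, 0% (Dut) to 12.0% (Rrm2) also occur in other genes' transcripts, and counts could be shared there. Chromosomes are from RefSeq on GRCm38.p6. Strand use in counting is not given in the sources used here.

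Counts were rounded, since the files hold estimated rather than whole counts, and edgeR 4.0.16 under R 4.3.3 gave the tests (TMM, default expression filter, robust quasi-likelihood fit, Benjamini-Hochberg over 15022 genes). Pair values use log2 CPM with a prior count of 2. The edgeR fit with the replicate block was tested on simulated data, and the other fits were not. Alternatives used DESeq2 1.42.0 and limma 3.58.1. Libraries of the same number were taken as pairs because their deviations from group means correlated at 0.53, 0.45 and 0.67 for numbers 1, 2 and 3, while the best match across numbers was 0.44, 0.44 and -0.51, so numbers 1 and 2 are paired only narrowly. The named genes were the 9 enzymes, 16 fixed companions, any called gene of the fixed lists and the 3 nearest profiles, and a few of these are not reported here. Members and lists were chosen with earlier results of these data known.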

Additional observations from a re-analysis of the deposited data

How the results depend on the processing

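The alternative fits of Nt5c were added after its value was seen. Without the replicate block 2 genes passed and 0 of the 9 enzymes (Rrm2 log2 fold change -0.93). With a replicate 3 term replacing the block, 197 genes and 0 enzymes passed. With the block, library size alone gave 58 genes (41 higher, 17 lower, against 65 and 44) and kept 1 enzyme, no expression filter gave 1257 genes and 5 enzymes (Rrm1, Rrm2, Tk1, Dut and Dck), and DESeq2 gave 495 genes and 2 enzymes (Rrm2 and Tk1). DESeq2 without the block gave 27 genes and 0 enzymes. In limma on TPM with the block, 12 genes passed with a pseudocount of 0.5 and 7 with 0.1, and 0 enzymes in each. Leaving out pair 1, 2 or 3 gave 373, 1210 or 51 genes and 2, 4 or 0 enzymes. With the replicate 3 term, leaving out 1 library gave 3 to 714 genes, with 56 and 25 without siCTRL replicates 1 and 2. Of those fits, the one without siCOX7A2L replicate 2 called 2 enzymes (Rrm2 and Tk1) and each other one called 0. The interaction with replicate 3 called 1 enzyme, Tk1, without an expression filter. The cause of these differences was not tested. Of 171 alternative values of the 9 enzymes, 145 kept direction and side of the threshold, 10 passed it, 11 (all Rrm2) no longer did and 5 changed sign. The 5 were of Rrm2b: -0.26 and -0.29 on TPM, where all genes shifted by -0.21 and -0.24, -0.10 without pair 1 (0.26 without pair 3), and with the term for replicate 3, -0.12 without siCOX7A2L replicate 1 and -0.05 without siCTRL replicate 2. The log2 difference of Rrm2 to Rrm1 ranged from -0.64 to -0.24 and that of Rrm2b to Rrm2 from 0.79 to 1.12 when 1 library was left out, and the paired form (replicate block) gave -0.50 and 0.94 (exact permutation p = 0.25 each, the smallest 3 pairs allow). With CPM in place of TPM the log2 difference of Rrm2 to Rrm1 was also -0.50, but the groups overlapped.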
